A study of Mus musculus with 8 samples.

Results

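J-domain proteins other than Dnajc2 were followed in mouse cells in which Dnajc2 itself was knocked down. Members were all genes that the array files name Dnaja, Dnajb or Dnajc followed by a number, apart from Dnajc2, and every probe of each was kept. This took 44 of the 36406 gene names on the array, read by 65 probes, of which 16 genes had more than 1 probe. The 4 knockdown samples carried a short hairpin RNA against Zrf1, an older name of Dnajc2, and the 4 control samples carried a control hairpin (shCtrl). All 8 samples were derived from embryonic stem cells and were taken at day 6 of neural induction, as neural progenitors that the labels call RGC-like NPC. Nothing in the labels says how many hairpins, clones or cultures stand behind the 4 samples of a group, so p-values measure the spread between these samples, which may be technical. File names of knockdown replicates 2 and 4 carry a mark that may stand for technical repeats of replicates 1 and 3, so the n of 4 in that group may hold fewer cultures. The cells were profiled in bulk, so fewer cells of a type and less RNA per cell cannot be told apart.

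J-domain proteins are the co-chaperones of Hsp70. Their J-domain, with its histidine-proline-aspartate motif, makes Hsp70 split ATP and close on a client protein, and nucleotide exchange factors then open it again. Each compartment has its own members, and the rest of each protein decides which client or place Hsp70 is sent to. Dnajc2 works on the ribosome beside the nascent chain and also acts on chromatin.

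The levels below are log2 signals with each array's 75th percentile at 0, and a change is the knockdown mean minus the control mean on that scale. On each array 53.4% to 60.3% of the spots were well above background and none was saturated. Dnajc2 averaged -2.32 ± 0.23 on the knockdown arrays and 1.87 ± 0.11 on the control arrays (SD, n = 4 each). That is 18.3-fold lower, with an adjusted p of 1.40e-07 in limma. The markers of the labelled cell type moved as well. Of 9 neural progenitor markers, 8 fell, with Fabp7 above background on none of the knockdown arrays. The exception was Pax6, whose brightest probe did not pass (-0.24; adjusted p = 0.0994, limma), while 1 of its 2 tested probes was called higher. The summed linear signal of the 9 markers was 31.6 to 32.5 on knockdown arrays, against 136 to 139 on control arrays. All 5 endoderm markers rose by their brightest probe. Their summed signal was 5.05 to 5.44 on knockdown arrays and 1.48 to 1.88 on control arrays. Afp was above background on none of the control arrays. Sox17 and Foxa2 changed by only 0.55 and 0.31, against 2.85 to 5.18 for Gata4, Gata6 and Afp. For each of Sox17 and Foxa2, 1 of 2 tested probes was called higher. Of the mesoderm list 2 of 2 tested markers rose (sums of 1.70 to 2.07 on knockdown arrays and 0.260 to 0.298 on control arrays, T and Mesp1 untested). Of the fibroblast list 2 of 3 tested markers rose (6.18 to 6.91 on knockdown arrays, 3.18 to 3.23 on control arrays, Postn untested). These were Thy1 (3.98) and Col1a1 (1.43), while Col1a2 (0.08) did not pass. The neuron list gave 1 marker higher and 2 lower of 4. Its sums were 9.69 to 10.5 on knockdown arrays and 7.04 to 8.68 on control arrays. The higher sum came from Stmn2 (change 2.25). Tubb3 (-2.91) and Map2 (-0.73, with 1 of 2 tested probes called) fell, and Elavl3 (-0.34) did not pass. The pluripotency list gave 3 of 4 lower, with sums of 18.4 to 20.4 on knockdown arrays and 52.8 to 58.3 on control arrays. Of Nanog, 1 of 2 tested probes was called lower. The part of these shifts in the values below was not tested.

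A probe was tested where every array of 1 group or of both read it well above background, which held for 56 of the 65 probes and 38 of the 44 genes. Each gene is counted by its brightest tested probe. Of the 38 genes, 12 were higher in knockdown cells, 15 were lower and 11 did not pass an adjusted p of 0.05 in limma. On the whole array 57.6% of 21753 tested genes passed, 29.1% of them as higher and 28.5% as lower. In the family 71.1% of the tested genes passed. Of its 56 tested probes 16 were higher and 22 lower, or 67.9%, against 57.0% of all 29091 tested probes. Groups did not overlap for 25 of the 38 genes, against 55.0% of all tested genes. The 6 genes left untested were Dnajb7, Dnajb8, Dnajb13, Dnajc5b, Dnajc5g and Dnajc6.

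Most changes were modest. They ran from -0.94 to 1.27, with a median of -0.07, against a median of 0.04 over all tested genes. Their median size regardless of sign was 0.40, against 0.42 over all tested genes. Only 2 members, Dnajc12 and Dnaja4, rose at least 2-fold, and by its brightest probe no member fell that far. On the whole array 10.4% of genes rose and 7.45% fell at least 2-fold. Whether the family differs from the array in this was not tested. With median scaling the count was 1 higher (Dnajc12, 1.09) and 3 lower (Dnajc11, -1.11, Dnajc30, -1.07, and Dnaja1, -1.06), against 8.04% and 10.5% of all tested genes. Dnaja4 was then at 0.86, after normexp with quantile at 0.95, in the authors' values at 0.94 and without control replicate 1 at 0.99, all short of 2-fold.

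**Figure D1:**
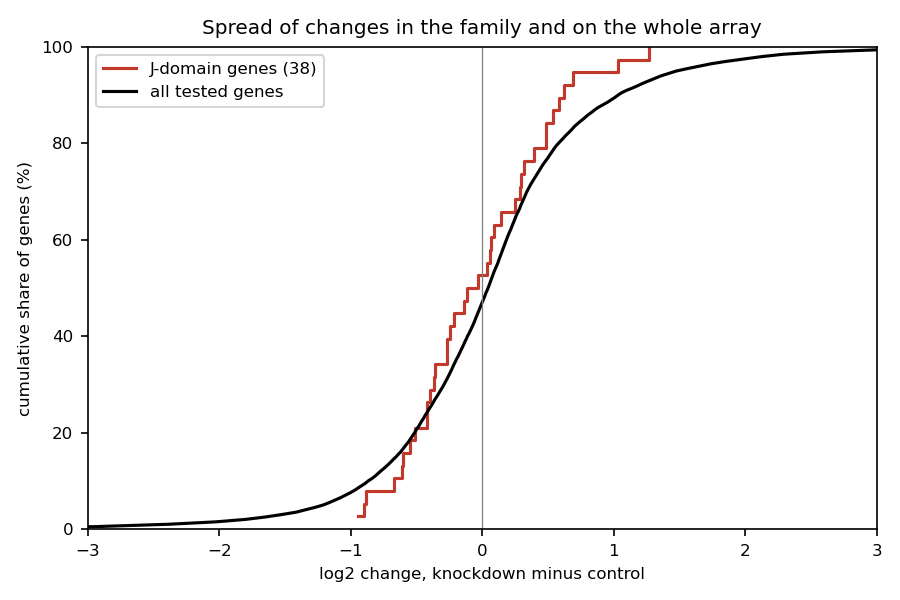
Cumulative share of genes (vertical axis, %) against the log2 change, knockdown minus control, for the 38 tested J-domain genes (red) and for all 21753 tested genes (black, axis limited to 3 on either side). The red curve ends at -0.94 and 1.27, while 5% of all genes lie below -1.21 and 5% above 1.47.

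The balance of rises and falls depended on the scaling. When each array was scaled by its median, the median change of all tested genes was -0.13, and the members then gave 6 higher and 17 lower. The share of calls that were higher was 44.4% for the members and 50.5% for all genes at the 75th percentile, and 26.1% and 37.3% with median scaling. The rises that kept their call with median scaling were those of Dnajc12, Dnaja4, Dnajb5, Dnajc18, Dnajb4 and Dnajb9.

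**Figure D2:**
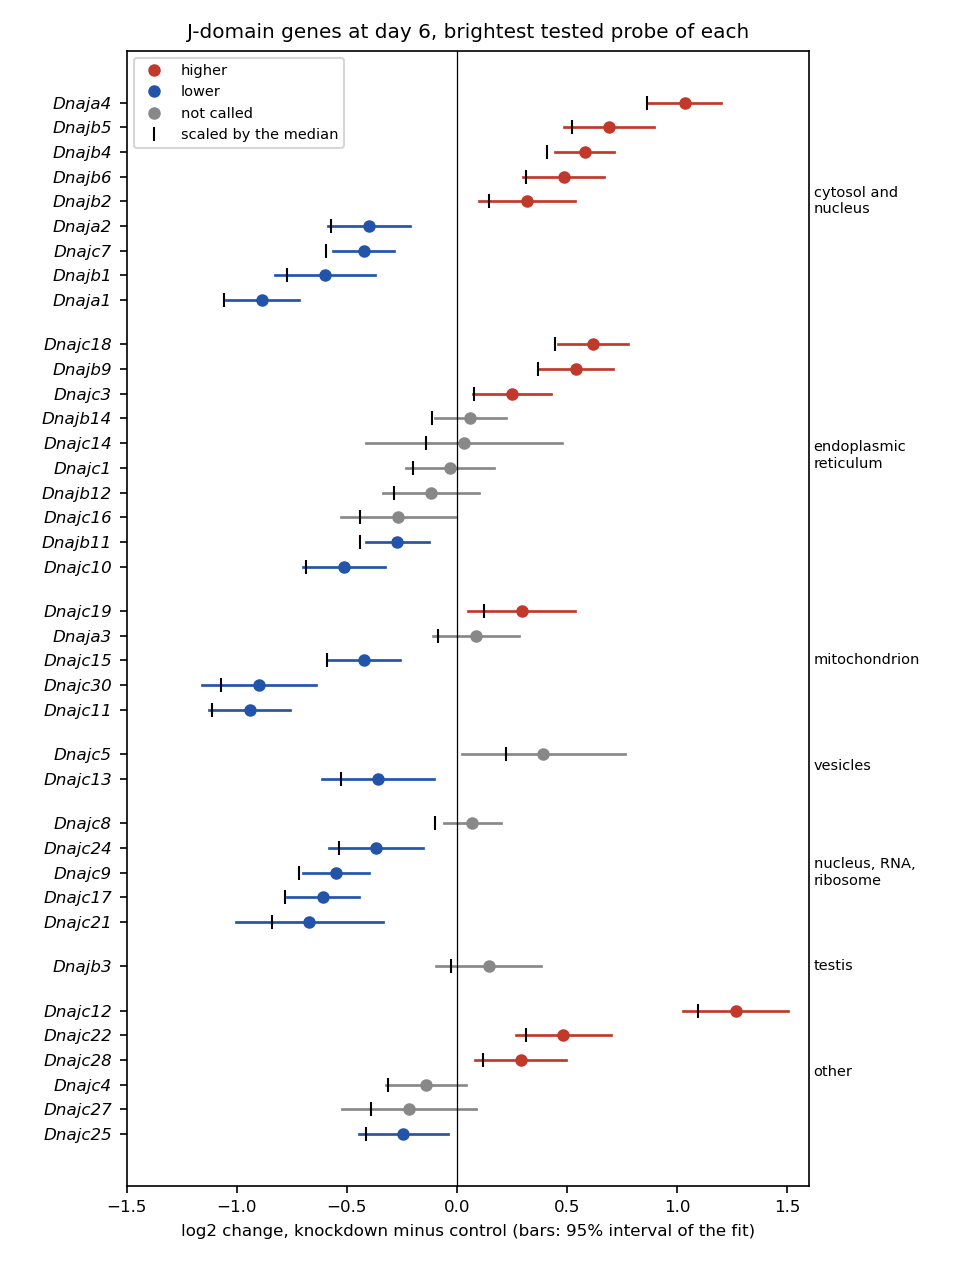
Log2 change, knockdown minus control (horizontal axis), of the 38 tested J-domain genes, grouped by where their proteins work. Dots are the fitted change of the brightest tested probe with its 95% interval, coloured by call (higher in red, lower in blue, not called in grey), and black ticks are the change after scaling each array by its median. Changes run from -0.94 (Dnajc11) to 1.27 (Dnajc12), and ticks stand to the left of the dots.

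The general co-chaperones of the cytosol and nucleus gave 5 of 9 genes higher in knockdown cells and 4 lower, where 57.6% of all tested genes passed in either direction. The groups did not overlap for any of these 9 genes, which held for 55.0% of all tested genes. With median scaling 3 were higher and 4 lower, and Dnajb2 and Dnajb6 did not pass. Dnaja4, a class A protein related to Dnaja1, read 0.83, 0.84, 0.80 and 0.81 on the knockdown arrays, against -0.33, -0.07, -0.20 and -0.25 on the control arrays. All knockdown arrays lay above all control arrays, and the change was 1.03 (SE 0.07; adjusted p = 7.17e-06, limma), or 2.05-fold. The probe lies at chr9:54564061-54564120 (mm9, plus strand). A second Dnaja4 probe was well above background on 3 knockdown arrays and 0 control arrays and was not tested. The promoter of Dnaja4 is shown because it was the member promoter with 2 matches to the heat shock element core GAANNTTC, which heat shock factors bind where it is repeated. The matches are in capitals and start at positions -90 and -52 from the gene start (RefSeq, GRCm38.p6, chr9:54699309-54699608, plus strand).
Dnaja4 promoter: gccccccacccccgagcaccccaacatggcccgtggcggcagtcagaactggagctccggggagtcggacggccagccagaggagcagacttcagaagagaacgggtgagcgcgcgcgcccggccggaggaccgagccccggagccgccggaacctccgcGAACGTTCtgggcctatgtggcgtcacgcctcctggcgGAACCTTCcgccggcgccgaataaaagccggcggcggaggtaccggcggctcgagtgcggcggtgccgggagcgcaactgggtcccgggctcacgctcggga

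Dnajb5, a class B relative of Dnajb1, read 1.45, 1.47, 1.41 and 1.39 on the knockdown arrays, against 0.73, 0.68, 0.96 and 0.58 on the control arrays. Its change was 0.69 (SE 0.09; adjusted p = 0.000239, limma). Dnajb4, another class B relative, read -1.53, -1.56, -1.62 and -1.62 on the knockdown arrays, against -2.13, -2.14, -2.20 and -2.18 on the control arrays. Both genes were higher on every knockdown array than on any control array, and Dnajb4 changed by 0.58 (SE 0.06; adjusted p = 5.44e-05, limma). Dnajb2, which carries ubiquitin-interacting motifs and is rich in neurons, read 1.46, 1.3, 1.53 and 1.61 on the knockdown arrays, against 1.22, 1.3, 1.1 and 1.02 on the control arrays. Its lowest knockdown array and highest control array nearly touched. Its change of 0.32 (SE 0.09; adjusted p = 0.0196, limma) was joined by 0.53 on its second probe, and with median scaling the first was 0.15 and did not pass. It also did not pass without knockdown replicate 3 (0.30), knockdown replicate 4 (0.27) or control replicate 4 (0.27).

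The other 4 members of this group were lower in knockdown cells. Dnaja1, the main class A partner of cytosolic Hsp70, read 5.95, 5.88, 5.76 and 5.83 on the knockdown arrays, against 6.64, 6.84, 6.77 and 6.71 on the control arrays. The change was -0.88 (SE 0.07; adjusted p = 1.70e-05, limma), or 1.85-fold lower, at chr4:40679954-40680014 (mm9, plus strand). A far dimmer Dnaja1 probe, with means of -2.49 on knockdown and -1.99 on control arrays, fell by 0.50 (adjusted p = 0.00354, limma). The RefSeq table lists a Dnaja1 pseudogene, whose transcripts the probes may not tell apart. Dnajb1, the classical heat-inducible Hsp40, read 4.94, 4.66, 4.63 and 4.70 on the knockdown arrays, against 5.24, 5.32, 5.52 and 5.26 on the control arrays. The groups did not overlap, and the change was -0.60 (SE 0.10; adjusted p = 0.000941, limma). Dnajc7, whose tetratricopeptide repeats bind both Hsp70 and Hsp90, read 4.39, 4.34, 4.43 and 4.49 on the knockdown arrays, against 4.83, 4.86, 4.81 and 4.85 on the control arrays. Its change was -0.42 (SE 0.06; adjusted p = 0.000419, limma). Dnaja2, the other major class A protein, was lower on both probes, by 0.40 in size on the brighter one (change -0.40, SE 0.08; adjusted p = 0.00292, limma).

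**Figure D3:**
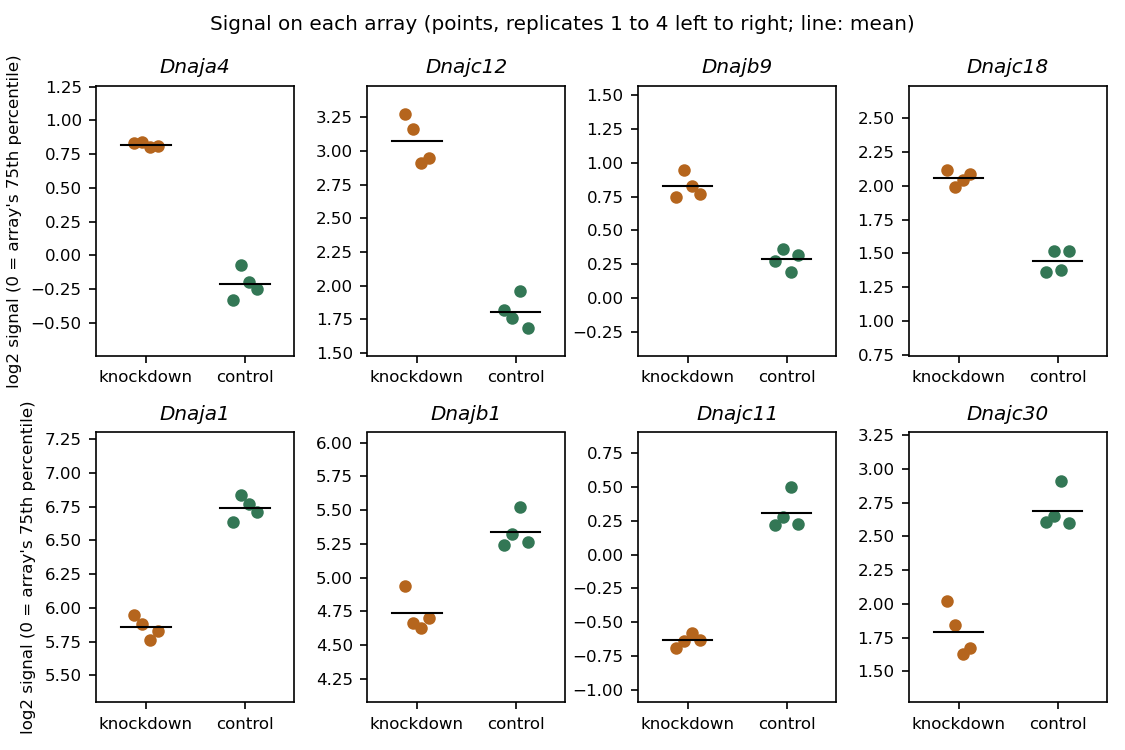
Log2 signal, with each array's 75th percentile at 0, on the 4 knockdown arrays (brown, left) and the 4 control arrays (green, right) for 8 J-domain genes. Every vertical axis spans the same log2 range, points are arrays and lines are group means. The top row, from Dnaja4 to Dnajc18, is higher on all knockdown arrays, and the bottom row, from Dnaja1 to Dnajc30, is lower on all of them.

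Dnajb6, which keeps polyglutamine proteins from aggregating and is made as a longer nuclear and a shorter cytosolic form, gave different calls from different probes. Its brightest probe, at chr5:30112855-30112911 (mm9, plus strand), read 4.00, 3.83, 3.84 and 3.87 on the knockdown arrays, against 3.31, 3.41, 3.56 and 3.34 on the control arrays. The change there was 0.48 (SE 0.08; adjusted p = 0.000948, limma), and with median scaling it was 0.31 and did not pass. A probe that overlaps it, at chr5:30112861-30112920, changed by 0.49 (SE 0.17; adjusted p = 0.0318, limma), although its groups overlapped, at 2.02 to 2.41 on knockdown arrays and 1.49 to 2.18 on control arrays. These neighbours share a target stretch and are not independent. The 2 probes that the files assign to another Dnajb6 transcript, upstream at chr5:30080099-30080158 and within chr5:30077544-30078952, changed by 0.11 (SE 0.10) and 0.12 (SE 0.08) and did not pass (adjusted p = 0.392 and 0.222, limma). A Dnajb6 pseudogene is listed in the RefSeq table.

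In the endoplasmic reticulum group 3 of 10 genes were higher, 2 lower and 5 did not pass. The share that passed, 50%, was below the 57.6% of all tested genes. Dnajb9 (ERdj4), a target of the unfolded protein response that turns the sensor IRE1 down through BiP, read 0.75, 0.95, 0.83 and 0.77 on the knockdown arrays, against 0.27, 0.36, 0.19 and 0.32 on the control arrays. The change was 0.54 (SE 0.07; adjusted p = 0.000318, limma), and a second probe gave 0.76 (SE 0.06; adjusted p = 2.15e-05, limma). On both probes all knockdown arrays were above all control arrays. Dnajc18, a membrane protein of the reticulum, read 2.12, 1.99, 2.04 and 2.09 on the knockdown arrays, against 1.36, 1.52, 1.38 and 1.52 on the control arrays. Its change was 0.62 (SE 0.07; adjusted p = 0.000102, limma).

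Dnajc3 (p58IPK), a luminal co-chaperone of BiP known as a stress target, read 1.22, 1.16, 1.12 and 1.07 on the knockdown arrays, against 0.96, 0.73, 0.97 and 0.91 on the control arrays. The groups stood apart by little, and the change was 0.25 (SE 0.08; adjusted p = 0.0234, limma). With median scaling it was 0.08 and did not pass, and it also did not pass without knockdown replicate 1 (0.22), knockdown replicate 2 (0.24) or control replicate 2 (0.19). Among the 37 members with a promoter in the RefSeq table, Dnajc3 held the one match to the endoplasmic reticulum stress element (CCAAT, 9 bases, CCACG), which 0.119% of all 32851 promoters hold. It is shown for that reason, with the match in capitals, starting at position -105 from the gene start (GRCm38.p6, chr14:118937682-118937981, plus strand).
Dnajc3 promoter: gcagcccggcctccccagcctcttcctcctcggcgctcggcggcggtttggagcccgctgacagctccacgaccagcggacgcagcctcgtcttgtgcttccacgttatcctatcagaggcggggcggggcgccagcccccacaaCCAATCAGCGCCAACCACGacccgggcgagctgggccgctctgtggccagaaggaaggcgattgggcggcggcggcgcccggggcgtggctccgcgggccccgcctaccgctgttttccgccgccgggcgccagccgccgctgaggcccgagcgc

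Other luminal members fell. Dnajc10 (ERdj5), a reductase that opens disulfide bonds of proteins bound for degradation, read 3.00, 2.79, 2.71 and 2.81 on the knockdown arrays, against 3.36, 3.37, 3.40 and 3.23 on the control arrays. The change was -0.51 (SE 0.08; adjusted p = 0.000767, limma). A second Dnajc10 probe, at chr2:80157697-80157756 (mm9, plus strand), changed by -0.70 (SE 0.08; adjusted p = 0.000122, limma). Of the 65 member probes it was the one in which a stop-free reading frame holds codons for histidine-proline-aspartate, and it is printed with those codons, bases 43 to 51, in capitals. The same motif was in a stop-free frame of 0.131% of all 55681 probes.
Dnajc10 probe: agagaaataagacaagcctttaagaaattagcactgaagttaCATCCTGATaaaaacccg

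Dnajb11 (ERdj3), a BiP co-chaperone that binds unfolded clients directly, read 2.65, 2.60, 2.53 and 2.59 on the knockdown arrays, against 2.88, 2.90, 2.78 and 2.89 on the control arrays. The change was -0.27 (SE 0.06; adjusted p = 0.00544, limma), with no overlap. Its second, dim probe read -4.42 to -2.64 on the knockdown arrays and -4.01 to -2.30 on the control arrays and did not pass (change -0.50, SE 0.48; adjusted p = 0.415, limma). After quantile normalization the change of the brighter probe was -0.16 and did not pass. After normexp with quantile and in the authors' values it was -0.14 and did not pass either. Dnajb11 also did not pass as the mean of its probes (-0.39) or on slide 2 alone (-0.27). The members that did not pass were the membrane proteins Dnajb12 (-0.12, SE 0.09), Dnajb14 (0.06, SE 0.07), Dnajc1 (-0.03, SE 0.09), Dnajc14 (0.03, SE 0.19) and Dnajc16 (-0.27, SE 0.11), with adjusted p between 0.0730 and 0.905 in limma. Dnajc16 was called lower without knockdown replicate 1 (-0.35) and with median scaling (-0.44).

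Mitochondrial members gave 3 lower and 1 higher of 5, where 28.5% of all tested genes were lower and 29.1% higher. Dnajc11, which associates with the complex that shapes cristae, read -0.69, -0.64, -0.58 and -0.63 on the knockdown arrays, against 0.22, 0.28, 0.50 and 0.23 on the control arrays. This was the largest fall of the family by brightest probe, -0.94 (SE 0.08; adjusted p = 2.09e-05, limma), or 1.92-fold lower, at chr4:151355874-151355933 (mm9, plus strand). A second Dnajc11 probe changed by -1.001 (SE 0.15; adjusted p = 0.000526, limma). Dnajc30, a protein associated with ATP synthase, read 2.02, 1.84, 1.63 and 1.67 on the knockdown arrays, against 2.61, 2.65, 2.91 and 2.60 on the control arrays. The groups were far apart, and the change was -0.90 (SE 0.11; adjusted p = 0.000200, limma), at chr5:135541037-135541096 (mm9, plus strand). Dnajc15 (MCJ), a J-domain protein of the import motor of the inner membrane, read 3.96, 3.91, 3.73 and 3.80 on the knockdown arrays, against 4.22, 4.29, 4.29 and 4.28 on the control arrays. Its change was -0.42 (SE 0.07; adjusted p = 0.00113, limma). Dnaja3 (Tid1), the partner of mitochondrial Hsp70 in the matrix, did not pass (0.09, SE 0.09; adjusted p = 0.431, limma).

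Dnajc19 (Tim14), the paralogue of Dnajc15 in the import motor, was the 1 member whose probes were called in opposite directions. Its brighter probe, at chr3:33976275-33976334 (mm9, minus strand), read 4.18, 4.19, 4.19 and 4.07 on the knockdown arrays, against 3.66, 3.74, 4.11 and 3.94 on the control arrays. The groups overlapped, and the change was 0.29 (SE 0.11; adjusted p = 0.0419, limma). The other probe, assigned to another transcript and lying downstream at chr3:33956895-33956954, read 0.70, 1.17, 1.28 and 0.83 on the knockdown arrays, against 1.21, 1.46, 1.67 and 1.79 on the control arrays. Its groups overlapped as well, and the change was -0.54 (SE 0.17; adjusted p = 0.0262, limma). The rise lost its call when any array other than control replicate 3 was left out, at 0.23 to 0.32, and with median scaling (0.12), and the mean of the probes gave -0.12. A Dnajc19 pseudogene is listed in the RefSeq table. The direction of Dnajc19 is uncertain here.

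Across the family 13 genes had at least 2 tested probes, and Dnajc19 was the 1 of them (7.69%) with opposite calls, against 4.86% of 3827 such genes on the array. Another 3 (Dnajb6, Dnajb11 and Dnajc5) had some probes that passed and some that did not, or 23.1%, against 32.9% of the 3827. The difference within each array between the brightest probe and the mean of the others was compared between groups with an exact permutation test, two-sided, over 70 splits of the arrays. It shifted by 0.83 for Dnajc19, 0.24 for Dnajb6 and -0.06 for Dnajc24, each at the smallest p that 4 against 4 arrays allow, 0.0286. After adjustment over the 13 genes none passed (adjusted p = 0.124, the lowest). With that smallest p, a gene could pass over 13 genes only if many of them sat at it. That none passed therefore does not show that the probes of a gene moved alike.

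**Figure D4:**
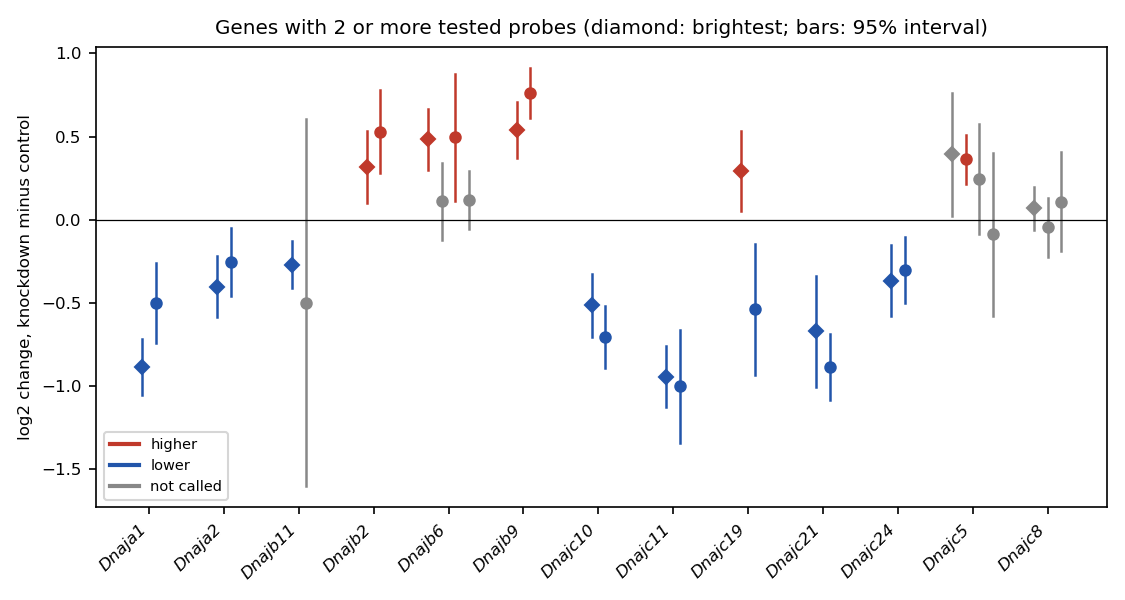
Log2 change, knockdown minus control, of every tested probe of the 13 J-domain genes with at least 2 tested probes. Diamonds are the brightest probe of each gene, circles the others, bars the 95% interval, and colours the call. Dnajc19 has 1 probe above 0 (0.29) and 1 below (-0.54), and 2 of the 4 Dnajb6 probes pass.

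In the group of nucleus, RNA and ribosome assembly 4 of 5 genes were lower and none was higher, where 28.5% of all tested genes were lower. After quantile normalization 4 were lower and 1, Dnajc8, higher. After normexp with quantile and in the authors' values 3 were lower and 1, Dnajc8, higher. Dnajc21, whose yeast counterpart Jjj1 helps to finish the large ribosomal subunit, read 1.15, 1.22, 0.99 and 1.05 on the knockdown arrays, against 1.74, 1.37, 1.94 and 2.04 on the control arrays. The change was -0.67 (SE 0.15; adjusted p = 0.00431, limma), and the second Dnajc21 probe gave -0.88. Dnajc17, a nuclear protein with an RNA recognition motif, read 0.50, 0.41, 0.37 and 0.46 on the knockdown arrays, against 1.06, 1.11, 1.10 and 0.90 on the control arrays. Its change was -0.61 (SE 0.07; adjusted p = 0.000139, limma). Both genes were lower on every knockdown array than on any control array.

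Dnajc9, a histone chaperone that brings Hsp70 to new histones, read 5.44, 5.32, 5.34 and 5.39 on the knockdown arrays, against 5.84, 5.93, 6.01 and 5.91 on the control arrays. The change was -0.55 (SE 0.07; adjusted p = 0.000151, limma). Dnajc24 (Dph4), a factor for the diphthamide residue of the elongation factor eEF2, read 2.98, 2.82, 2.67 and 2.73 on the knockdown arrays, against 3.11, 3.12, 3.34 and 3.1 on the control arrays. Its change was -0.37 (SE 0.09; adjusted p = 0.00923, limma), and the second probe gave -0.30. After normexp with quantile normalization and in the authors' values the change of the brighter Dnajc24 probe was -0.20 and did not pass. Dnajc8, a protein of the spliceosome, read 4.22, 4.18, 4.21 and 4.20 on the knockdown arrays, against 4.14, 4.13, 4.08 and 4.18 on the control arrays. None of its 3 probes passed, and the brightest gave 0.07 (95% interval -0.06 to 0.20; adjusted p = 0.331, limma). Dnajc8 was called higher after quantile normalization, at 0.18, and at 0.22 both after normexp with quantile and in the authors' values. With median scaling its value was -0.10.

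Among the vesicle proteins Dnajc5, Dnajc6 and Dnajc13, 1 of 2 tested genes was lower, where 28.5% of all tested genes were lower. Dnajc5 (cysteine string protein alpha), which keeps the release machinery of synaptic vesicles folded, read 6.46, 6.76, 6.70 and 6.40 on the knockdown arrays, against 5.95, 5.90, 6.48 and 6.41 on the control arrays. The groups overlapped, and the change of 0.39 (SE 0.16) did not pass (adjusted p = 0.0675, limma). The other Dnajc5 probes were far dimmer, with knockdown means of 0.41, -0.60 and -2.53, against 6.58 for the brightest. Why the levels differ so much was not tested, so the brightest probe may not stand for the level of Dnajc5. The probe at 0.41 was higher on all knockdown arrays, with a change of 0.36 (SE 0.06; adjusted p = 0.00135, limma), and the other 2 did not pass. The call of the brightest Dnajc5 probe depended on the processing. It was called higher with the slide as a block (adjusted p = 0.00538, limma), after quantile normalization (0.46; adjusted p = 0.0251, limma), after normexp with quantile (0.45; adjusted p = 0.0173, limma) and in the authors' values (0.43; adjusted p = 0.0188, limma). It was also called without control replicate 3 (0.49) and as the mean of its probes (0.23). With median scaling it was 0.22 and did not pass. Dnajc13, which acts on endosomes, fell by 0.36 (SE 0.11; adjusted p = 0.0226, limma). It lost its call without knockdown replicate 3 (-0.34), knockdown replicate 4 (-0.28) or control replicate 3 (-0.31). Dnajc6 (auxilin), which uncoats clathrin vesicles and is mainly neuronal, was not well above background by its 1 probe, which read -5.98, -6.25, -5.21 and -6.36 on the knockdown arrays and -6.37, -6.04, -6.58 and -5.98 on the control arrays.

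The remaining 6 genes with other or less known roles held the largest change of the family. Dnajc12, a co-chaperone of the aromatic amino acid hydroxylases that make tyrosine, dopamine and serotonin precursors, read 3.27, 3.16, 2.91 and 2.95 on the knockdown arrays, against 1.82, 1.76, 1.96 and 1.69 on the control arrays. Every knockdown array was far above every control array, and the change was 1.27 (SE 0.10; adjusted p = 1.72e-05, limma), or 2.40-fold, at chr10:62871211-62871270 (mm9, plus strand). Dnajc22, a membrane protein, read 0.28, 0.06, -0.13 and -0.02 on the knockdown arrays, against -0.49, -0.39, -0.45 and -0.43 on the control arrays. Its change was 0.48 (SE 0.09; adjusted p = 0.00238, limma), and with median scaling it was 0.31 and did not pass. Dnajc28 read -2.12, -2.45, -2.13 and -2.32 on the knockdown arrays, against -2.55, -2.50, -2.59 and -2.52 on the control arrays, so that the groups nearly met. Its change was 0.29 (SE 0.09; adjusted p = 0.0232, limma), and after quantile normalization 0.14, which did not pass. It also did not pass with median scaling (0.12) or without knockdown replicate 1 (0.24), knockdown replicate 3 (0.25), control replicate 1 (0.29) or control replicate 3 (0.27). Dnajc25 fell by 0.24 (SE 0.09; adjusted p = 0.0433, limma) with groups that overlapped, and it lost its call when any array other than knockdown replicate 2 or control replicate 1 was left out, at -0.26 to -0.19. Dnajc4 (-0.14, SE 0.08) and Dnajc27 (-0.22, SE 0.13), which joins a J-domain to a small GTPase, did not pass, although Dnajc4 was called without knockdown replicate 1 (-0.20) and Dnajc27 with median scaling (-0.39) and after quantile normalization (-0.38).

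Of the 6 genes known from testis or sperm, only Dnajb3 was tested, and it did not pass (0.14, SE 0.10; adjusted p = 0.272, limma), but was called higher without control replicate 3 (0.24). Dnajb7, Dnajb8, Dnajb13, Dnajc5b and Dnajc5g did not reach this level on every array of either group.

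The called changes were read on each of the 3 slides, each of which held both groups. All 27 called genes had the same sign on every slide. For the 25 whose groups did not overlap this could not be otherwise, since each slide held both groups. Only for Dnajc19 and Dnajc25 could the sign have differed. Slides 1 and 3 held 1 array of each group. Within slides 1, 2 and 3 the change was 1.51, 1.21 and 1.13 for Dnajc12, 0.90, 1.05 and 1.15 for Dnaja4, and -0.97, -0.97 and -0.85 for Dnajc11. It was -0.37, -0.75 and -0.53 for Dnajb1, and -0.22, -0.89 and -0.69 for Dnajc21. With the slide as a block in limma, 13 genes were higher and 16 lower.

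Of the 38 partner genes of the Hsp70 and Hsp90 machines listed, 37 were on the array and 35 were tested: 10 were higher in knockdown cells, 12 lower and 13 did not pass. The share that passed, 62.9%, is near the 57.6% of all tested genes. Among 8 tested Hsp70 genes 4 were higher and 2 lower, where 29.1% of all tested genes were higher and 28.5% lower. Hspa1a, the stress-induced cytosolic Hsp70, averaged -0.18 ± 0.14 in knockdown cells and -2.70 ± 0.31 in control cells, which is 5.74-fold higher (adjusted p = 3.92e-06, limma). Hspa5 (BiP), the Hsp70 of the endoplasmic reticulum, averaged 7.01 ± 0.04 in knockdown cells and 6.00 ± 0.08 in control cells, a change of 1.02 (adjusted p = 4.41e-06, limma). Hspa2 changed by 0.62 (adjusted p = 0.000239, limma). The constitutive Hspa8 (0.22, SE 0.10; adjusted p = 0.0971) and mitochondrial Hspa9 (-0.08, SE 0.12; adjusted p = 0.610) did not pass in limma.

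Of 13 exchange factors 2 were higher and 6 lower, where 29.1% of all tested genes were higher and 28.5% lower. Grpel1, the exchange factor of mitochondrial Hsp70, averaged 6.49 ± 0.06 in knockdown cells and 5.41 ± 0.02 in control cells, a change of 1.08 (adjusted p = 2.03e-06, limma). Bag2, which also restrains the ubiquitin ligase Chip, changed by -0.86 (adjusted p = 8.93e-06, limma), and Hspbp1, a cytosolic exchange factor, by -1.03 (adjusted p = 6.75e-05, limma). J-domain genes with other names went both ways. Sec63, which draws BiP to the translocon, changed by -1.20 on its brightest probe (adjusted p = 0.000323, limma), the only 1 of its 2 tested probes that was called. Hscb, which serves iron-sulfur cluster transfer, changed by 0.77 (adjusted p = 0.000565, limma). Gak, the widely expressed relative of auxilin, changed by -0.35 (adjusted p = 0.00134, limma). Of 10 genes of Hsp90 and its co-chaperones, 2 were higher and 2 lower, against 29.1% and 28.5% of all tested genes. Hsp90b1 (Grp94), the Hsp90 of the endoplasmic reticulum, changed by 0.67 (adjusted p = 0.000346, limma), the Hsp90 activator Ahsa1 by -0.62 (adjusted p = 0.000142, limma) and mitochondrial Trap1 by -0.39 (adjusted p = 0.00248, limma).

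Stress motifs were searched in the member promoters, which were 50 windows of 37 genes, from 250 bases before to 50 after the start. On both strands the heat shock element core GAANNTTC was in 6 of the 50 (12%), against 7.86% of all promoters. By gene it was in 5 of the 37, against 9.04% of all genes with a promoter. These were windows of the called genes Dnaja1 and Dnaja4, of Dnajb6 with 2, and of Dnajc27 and Dnajc5g. The 2 Dnajb6 windows overlap and hold the same match. The unfolded protein response element TGACGTGG was in the promoter of Dnajc25, against 0.676% of all promoters. The amino acid response element TGATGNAA was in none, against 3.97%. These are matches of letters in short windows.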

How the data were processed

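The deposited scanner files hold, per the file headers, 1-colour spot intensity values from Agilent Feature Extraction 10.7.3.1 (array design 028005, probes of 60 bases, mm9 positions), already background-corrected within each array. Per the labels, 100 ng of total RNA was amplified with oligo-dT and labelled with Cy3. The authors also deposited a table of log2 values, which correlated at 0.99999 with normexp (offset 50) and quantile normalization computed here. It served as an alternative, and how it was made is not given in the sources used here. Log2 was taken of each spot, and the log2 spots of a probe were averaged without outlier spots. The log2 of each array's 75th percentile (483 to 696 intensity units) was then subtracted. Knockdown minus control was tested two-sided per probe with limma 3.58.1 in R 4.3.3 (lmFit, eBayes), with Benjamini-Hochberg adjustment over all 29091 tested probes of 55681 and a threshold of 0.05. Each gene was represented by its brightest tested probe over the 8 arrays. The number of arrays limits the precision. On data simulated for this comparison over 29091 probes, 8% of probes changed 1.3-fold were called, 46% at 1.5-fold, 70% at 2-fold and 86% at 4-fold. That simulation changed only 50 probes at each size, while 57.0% of the tested probes passed in the data. The Benjamini-Hochberg adjustment is stricter where fewer probes change, so these shares do not carry over to the data and are likely too low for it.

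Values on each array are given for the 10 largest rises and falls among called members without overlap, for members with disagreeing probes and for a fixed set of members known from stress, import and RNA work. For partners, up to 3 called genes of each list with the smallest p are given, and Hspa8 and Hspa9 were added after their values were seen. The members, lists and tests were chosen with earlier results of these data known. Probe accessions matched the member's gene and chromosome in the RefSeq gene table for 63 of 65 probes, and the other 2 were not in that table. Whether probes lie in exons or UTRs was not analysed here. Promoters came from the RefSeq table (GRCm38.p6), which matched 37 of the 44 genes. Alternatives covered scaling, background correction, the filter on dim probes, slide and replicate blocks, averaged knockdown pairs, probe choice and leaving out each array.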

Additional observations from a re-analysis of the deposited data

Results flagged for a closer look

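In 6 of the 76 groups of 4 arrays that were looked at (2 per tested gene), 1 array stood apart from the other 3 by Dixon's test. Chance flags about 1 in 20 groups. All values are log2 signals of the brightest probe. Knockdown replicate 3 read 1.47 for Dnajb14, where the other knockdown arrays were at 1.64 to 1.66. Knockdown replicate 4 read 4.07 for Dnajc19, against 4.18 to 4.19 on the others. Control replicate 1 read 3.30 for Dnaja3, against 3.44 to 3.45. Control replicate 3 stood apart for 3 genes: 2.78 for Dnajb11 (others 2.88 to 2.90), 3.34 for Dnajc24 (others 3.1 to 3.12) and 2.91 for Dnajc30 (others 2.60 to 2.65). Of these genes, Dnajb11, Dnajc24 and Dnajc30 were called lower in knockdown cells and stayed so without control replicate 3. Dnajc19 was called higher, and without knockdown replicate 4 its change was 0.32 and did not pass. Dnaja3 and Dnajb14 were not called.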

How the results depend on the processing

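Of the 27 called J-domain genes, 16 kept their sign and passed under all 20 alternatives with a test: Dnaja1, Dnaja4, Dnajb1, Dnajb4, Dnajb5, Dnajb9, Dnajc7, Dnajc9, Dnajc10, Dnajc11, Dnajc12, Dnajc15, Dnajc17, Dnajc18, Dnajc21 and Dnajc30. All but Dnajc19 kept their sign. The count of higher genes, 12, became 6 with median scaling and 6 on slide 2 alone, an alternative chosen after seeing the data. The members' median change, -0.07, was -0.245 with median scaling and 0.0441 within slide 1. Leaving out 1 array gave 9 to 13 higher and 13 to 16 lower genes, a median of -0.11 to -0.03, and 7 to 9 higher and 11 to 13 lower partner genes. With the replicate number as a block, 8 members were higher and 14 lower. Whether the numbers pair the samples is not known. Same-numbered arrays correlated at 0.105, -0.118, 0.114 and -0.190 in their deviations from the group means. Differently numbered arrays were not compared and slides were not accounted for, so these values cannot settle it. Averaging knockdown 1 with 2 and 3 with 4, the possible technical repeats, gave 9 higher and 13 lower. Signs turned, with the cause not tested, mostly in genes that were not called. With median scaling these were Dnaja3 (-0.0853), Dnajb3 (-0.0268), Dnajb14 (-0.11), Dnajc8 (-0.10) and Dnajc14 (-0.14). Dnajc1 gave 0.0454 after quantile normalization, 0.0368 after normexp with quantile and 0.0367 in the authors' values, and Dnajc14 gave -0.11, -0.0122 and -0.0125. Leaving out 1 array gave Dnajc14 -0.0711 to 0.168 and Dnajc1 -0.0799 to 0.0162. The mean of probes gave Dnajc19 -0.12, and slide 2 alone gave Dnajc14 -0.16. For genes that did not pass, the 95% intervals of the changes give what 8 arrays can show.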
